A study of Mus musculus with 29 samples.

Results

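The subunits of the mitochondrial oxidative phosphorylation system were followed across 6 mouse models of colitis and their 3 control groups. Members were all protein-coding genes whose symbols begin with Nduf (followed by a, b, c, s or v), Uqcr, Cox4 to Cox8 or Atp5, together with Sdha to Sdhd and the mitochondrially encoded mt-Nd, mt-Co, mt-Cytb and mt-Atp genes. This rule, which uses names and no measured value, found 107 of the 54532 genes of the count table: 94 are encoded in the nucleus and 13 on mitochondrial DNA. The measurement was bulk RNA sequencing of whole colon from 29 mice, 3 or 4 in each group, with 10725564 to 14977094 counts in each library. Levels are given as CPM, a gene's counts scaled to the effective size of its library. Genes are called higher or lower where the Benjamini-Hochberg adjusted p of the quasi-likelihood test in edgeR, run over 18616 genes, is below 0.05.

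The 4 BALB/c groups without a labelled gene deletion were untreated wild-type controls (n = 3), mice given 3% dextran sulphate sodium (DSS) in the drinking water for 5 days and culled on day 10 (n = 3), mice given 3 mg dinitrobenzene sulphonic acid (DNBS) rectally (n = 3), and mice in which IL-10 signalling was blocked with 750 µg of an anti-IL-10R antibody and which were culled after 4 weeks or at signs of colitis (n = 4, called IL-10 blockade here and IL-10 def. in the plots). TRUC mice carry Tbx21-/- and Rag2-/- on the Balb/C background and develop colitis without treatment (n = 4). Their controls were untreated Balb/C Rag2-/- mice (n = 3), which share the lack of T and B cells. The last 3 groups were labelled C57BL/6 Rag1-/-: untreated controls (n = 3), mice culled 7 days after 50 µg of agonist anti-CD40 antibody (n = 3), and recipients of sorted naive CD4+ T cells, which were culled after 6 to 8 weeks and are called TCT (n = 3). The labels give no age. The treatment text calls the T cell recipients Rag2-/-, whereas their genotype label is Rag1-/-. The study's methods describe Il10-/- mice for IL-10, C57Bl6 mice for DSS, and other cull times for DSS and T cell transfer, so what these groups were is in doubt, and the groups here follow the labels. For mouse colon RNA the methods describe fragments of the distal colon measured on an expression array, whereas the data here are sequencing counts. The region of colon sampled is thus in doubt as well. DSS, DNBS and IL-10 blockade share the wild-type controls, and TCT and anti-CD40 share the Rag1-/- controls, so comparisons with a shared control are not independent of each other.

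Counts of the deleted genes did not separate the libraries as their genotype labels would. Rag1 had 20 to 33 counts in the TCT libraries and at most 4 in all other groups. Rag2 had 0 counts in TCT, 6 to 20 in the libraries labelled Rag1-/- controls, 48 to 99 in those labelled anti-CD40, 15 to 25 in the Rag2-/- controls and 57 to 94 in TRUC. The libraries labelled Rag1-/- controls and anti-CD40 thus had the Rag2 reads seen in the Rag2-/- lines, and TCT did not. Tbx21 was counted in TRUC (26 to 52 counts). It is not known whether these reads fall within the deleted segments, so the counts do not settle a genotype. A nuclear copy of a mitochondrial gene, Gm28438, split the groups in the same way (values below). Il10, which the labels do not give as deleted, had 61 to 111 counts after IL-10 blockade. For this reason anti-CD40 was also set against the Rag2-/- controls and TCT against the wild-type controls. By the labels both of these control groups are Balb/C, whereas anti-CD40 and TCT are C57BL/6, and the wild-type mice carry no labelled deletion. A call lost against them may thus reflect labelled strain or genotype as well as the treatment, which cannot be told apart. Markers of colon epithelium were abundant in all libraries (Epcam at least 14442 counts), and the pancreas markers reached at most 14 counts.

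Oxidative phosphorylation is carried out by 5 complexes of the inner mitochondrial membrane. Complexes I and II pass electrons from NADH and succinate to ubiquinone, complex III passes them to cytochrome c, complex IV passes them to oxygen, and complex V makes ATP from the proton gradient that complexes I, III and IV build. Most subunits are made in the cytosol from nuclear genes and imported, while a small hydrophobic core is translated inside mitochondria from mitochondrial DNA, so that all complexes except complex II need both genomes. Colonocytes are known for meeting much of their energy need by oxidising butyrate in mitochondria.

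Of the 94 nuclear members, 91 had the mean of 3 counts per library required for testing: 38 of complex I, 8 complex I assembly factors (the Ndufaf genes, which the rule takes in although they are not subunits), 4 of complex II, 8 of complex III, 16 of complex IV and 17 of complex V. Ndufa4 is counted here under complex I by its name, but its product is known as a complex IV subunit. Cox7b2, Cox8c and a second Atp5o identifier had no counts in any library. Of the 13 mitochondrially encoded members 12 were tested, and mt-Atp8, with a mean of 2.79 counts, was not.

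Upstream sequence was looked at because the nuclear members move together and many are known targets of nuclear respiratory factors. Promoter windows of 250 bases before to 50 bases after the start site, from RefSeq on GRCm38.p6, were found for 74 of the 94 nuclear members. The letters of the NRF1 motif (CGCANGCGC, both strands) occurred in 25 of these 74 windows (33.8%) and in 9.68% of the windows of 17492 protein-coding genes. The ETS letters bound by NRF2/GABP (CCGGAAGT, both strands) occurred in 5 member windows (6.76%) against 5.69% of all. The YY1 letters (AAGATGGCG) occurred in 8 (10.8%) against 2.14%, and those of the oestrogen-related receptors (TCAAGGTCA) in 2 (2.70%) against 0.377%. A match is a description of the letters and is not a binding site shown to be used.

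One stretch upstream of the start site is printed for each complex, chosen among the members that hold a match and were higher after IL-10 blockade than in DSS (values below). Capitals mark the NRF1 letters, or in Uqcrh the ETS letters, and overlapping matches run together. The stretches are read 5′ to 3′ on the strand of the gene: Ndufa11 at chr17:56717592-56717761 (plus strand), Sdhd at chr9:50603850-50604019 (minus), Uqcrh at chr4:116075072-116075240 (minus), Cox6a1 at chr5:115348982-115349128 (minus) and Atp5h at chr11:115419963-115420089 (minus).
Ndufa11, complex I: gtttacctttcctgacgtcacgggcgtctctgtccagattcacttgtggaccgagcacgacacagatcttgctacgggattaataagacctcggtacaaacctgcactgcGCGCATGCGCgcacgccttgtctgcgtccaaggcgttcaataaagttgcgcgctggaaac
Sdhd, complex II: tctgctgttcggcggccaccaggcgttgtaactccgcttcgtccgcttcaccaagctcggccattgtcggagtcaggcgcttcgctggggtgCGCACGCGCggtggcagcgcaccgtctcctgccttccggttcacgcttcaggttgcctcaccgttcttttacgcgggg
Uqcrh, complex III: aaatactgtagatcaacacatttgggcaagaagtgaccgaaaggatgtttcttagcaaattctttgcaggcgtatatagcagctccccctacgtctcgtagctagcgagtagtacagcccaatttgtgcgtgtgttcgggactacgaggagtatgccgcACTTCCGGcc
Cox6a1, complex IV: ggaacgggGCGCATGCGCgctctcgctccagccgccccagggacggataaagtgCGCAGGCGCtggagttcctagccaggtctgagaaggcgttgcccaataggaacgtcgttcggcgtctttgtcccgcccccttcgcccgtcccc
Atp5h, complex V: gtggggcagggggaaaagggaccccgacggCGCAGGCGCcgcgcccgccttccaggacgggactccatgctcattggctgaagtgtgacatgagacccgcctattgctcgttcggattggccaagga
The Ndufa11 matches begin 60 and 59 bases before the start site, and that of Sdhd 78 bases before it. The ETS letters of Uqcrh lie 11 bases before the start. Cox6a1 holds 3 matches, at 162, 161 and 116 bases, and Atp5h has 1 at 140 bases.

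Nuclear members went in opposite directions in IL-10 blockade and in DSS. After IL-10 blockade 75 of the 91 tested nuclear members were higher than in wild-type controls and 3 were lower, where 27.2% of all tested genes were called higher and 26.1% lower. In DSS 45 were lower and 1 was higher, where 16.3% of all genes were called lower and 17.7% higher. The median log2 fold change of the 91 was 0.66 after IL-10 blockade and -0.37 in DSS, and the medians of all genes were -0.01 and 0.02. The DSS count depended on 1 mouse: without DSS mouse 8 it was 13 in place of 45. It was also 13 when DSS and its controls were fitted without the other groups. As both counts use the same wild-type mice, the models were also compared directly.

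Set directly against DSS, IL-10 blockade had higher levels of 82 of the 91 nuclear members and lower levels of none, where 24.6% of all genes were called higher and 25.1% lower. The median log2 difference was 1.05. At an unadjusted p under 0.05 in edgeR 1 was lower, Cox8b, and DESeq2 called 80 higher and 0 lower. In 80 of the 91 members every mouse of the IL-10 blockade group was above every DSS mouse. Those not called were Ndufa4l2, Ndufb2, Ndufaf4, Ndufaf5, Ndufaf7, Cox4i2, Cox6a2, Cox6b2 and Cox8b. Leaving out any 1 mouse of the comparison left 80 to 83 members higher and at most 2 lower. This comparison was added after the counts against the controls had been seen.

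**Figure D1:**
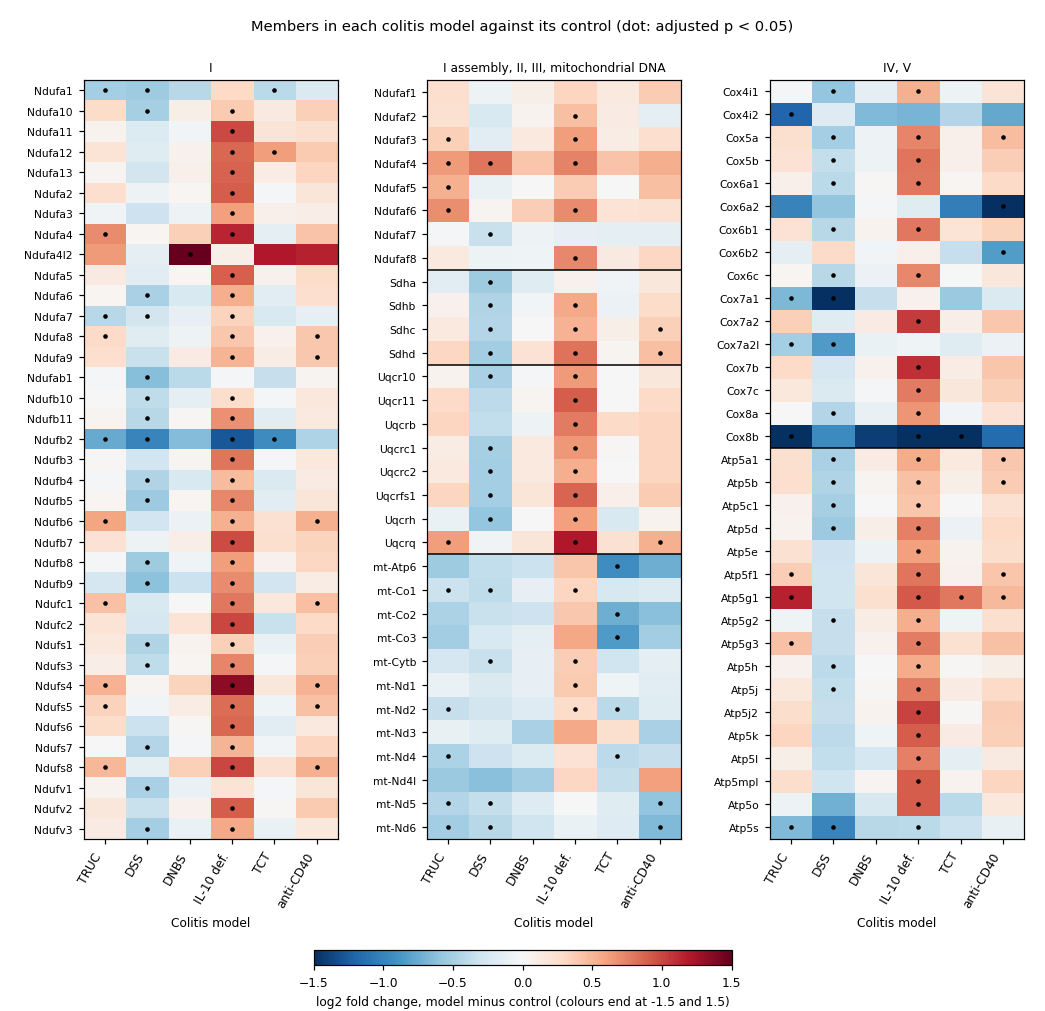
Log2 fold change of tested members, 1 of which is not drawn (rows in 3 panels by complex, mitochondrially encoded genes in the middle panel) in each of the 6 models against its own controls (columns), with a dot where the adjusted p is under 0.05. Over all 91 tested nuclear members, 8 are below 0 after IL-10 blockade (IL-10 def.) and 86 in DSS.

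The other models moved fewer nuclear members. In TRUC 15 were higher and 8 lower than in Rag2-/- controls, beside 22.4% and 23.4% of all genes. In this fit the share of members called (16.5% higher, 8.79% lower) was thus under the background in both directions. The TRUC number higher depended on the fit: it was 38 with DESeq2 or edgeR on the 2 groups alone, and 7 without Rag2-/- control 1. The share of all genes called was not counted in those other fits, so they give no comparison with the background. In DNBS edgeR called 1 member higher and 0 lower (background 3.95% and 2.21%), while 5 were lower at an unadjusted p under 0.05 and DESeq2 called 1 lower. TCT had 2 higher and 3 lower (background 16.1% and 14%). In the anti-CD40 group 16 were higher and 2 lower (background 10.9% and 10.7%). Median log2 fold changes of the nuclear members were 0.15 in TRUC, 0.01 in DNBS, 0.02 in TCT and 0.29 in anti-CD40. Against the Rag2-/- controls the anti-CD40 count was 2 higher and 5 lower, and leaving out single mice moved the number higher between 1 (without Rag1-/- control 3 or anti-CD40 mouse 7) and 30 (without anti-CD40 mouse 8). Against the wild-type controls TCT had 2 higher and 4 lower.

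A test of whether a gene's change differed among the 6 models passed for 81 of 91 nuclear and 12 of 12 mitochondrially encoded members, beside 60.5% of all genes. The 10 nuclear members that did not pass were Ndufb2, Ndufaf1, Ndufaf4, Ndufaf5, Ndufaf6, Ndufaf7, Cox4i2, Cox6a2, Cox6b2 and Cox8b. By class, 37 of 38 complex I members, all members of complexes II, III and V, 12 of 16 complex IV members and 3 of 8 assembly factors passed.

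The summed level of the nuclear subunits (86 genes, assembly factors left out) shows this mouse by mouse. Wild-type controls had 15064, 14641 and 15383 CPM and DSS mice 12617, 12061 and 9310 CPM. After IL-10 blockade the sums were 21366, 23429, 21108 and 28108 CPM. All DSS mice lay below and all IL-10 blockade mice above the controls, with ratios of the group means of 0.754 and 1.56. DNBS mice (13203, 14910 and 17853 CPM) spanned the controls. TRUC mice (18329 to 21631 CPM) lay above their controls (16991 to 18044 CPM), as did anti-CD40 mice (17803 to 20752 against 14317 to 17310 CPM), at ratios of 1.13 and 1.24. TCT mice (15285 to 16839 CPM) overlapped theirs, at a ratio of 1.04. The sums are on the TMM scale, whose factors were 0.907 to 0.948 in TRUC and 1.00 to 1.06 in its controls. After IL-10 blockade the factors were 0.814 to 0.918, against 1.06 to 1.12 in wild-type controls, so the ratio of 1.56 depends on them. Upper quartile scaling left the median log2 fold change of the nuclear members at 0.04 in TRUC and 0.49 after IL-10 blockade. How far the separation in TRUC, anti-CD40 and IL-10 blockade rests on the scale was not tested.

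**Figure D2:**
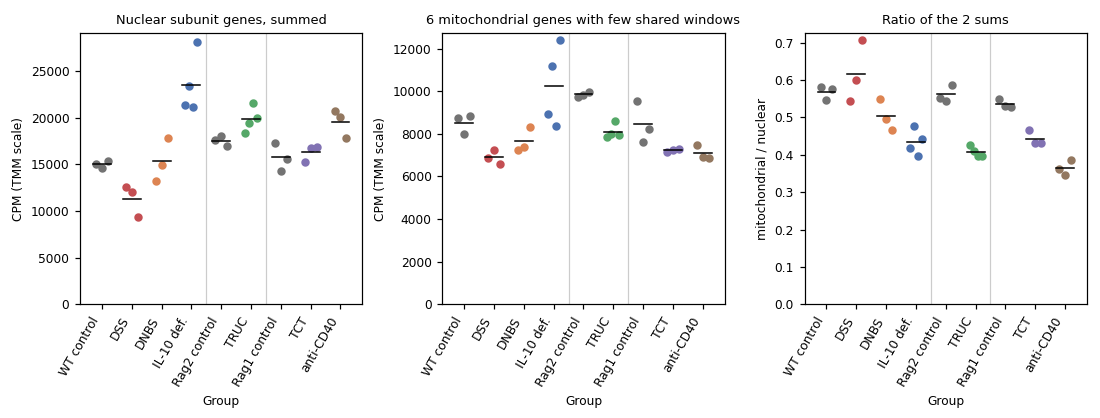
Summed CPM of the 86 nuclear subunits (left), of the 6 mitochondrially encoded genes with few shared windows, the untested mt-Atp8 included (middle) and the ratio of these sums (right), 1 point per mouse in 9 groups, with a line at the group mean and axes from 0. IL-10 blockade mice reach 21108 to 28108 CPM for the nuclear subunits and DSS mice 9310 to 12617 CPM, on either side of the wild-type controls.

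In whole colon, fewer cells of a type and less RNA per cell cannot be told apart, and markers of cell types moved in the same models. The summed level of 9 epithelial markers was 8969 to 10778 CPM in wild-type controls, 7092 to 8599 in DSS and 14274 to 20490 after IL-10 blockade. Of these 9 markers 8 were higher after IL-10 blockade, and 4 were lower and 1 higher in DSS. Epithelial sums were 14367 to 15611 CPM in TRUC against 11315 to 12294 in its controls, and 12763 to 14398 in anti-CD40 and 12226 to 13908 in TCT against 10315 to 11101. None of the 9 was at 0 in any library. Of 8 smooth muscle markers 7 were lower after IL-10 blockade (2756 to 5168 against 6886 to 8470 CPM), 4 in TRUC (3079 to 4549 against 6391 to 7003 CPM) and none in DSS (4996 to 12229 CPM). Of 6 markers of mature colonocytes 4 were lower in TRUC (958 to 1671 against 3919 to 4763 CPM) and 3 in TCT (1277 to 2341 against 3451 to 3747 CPM). In DSS 1 was lower and 1 higher (1726 to 3241 against 3245 to 4097 CPM), and after IL-10 blockade 1 was lower and 2 higher (1512 to 5063 CPM). Colonocyte sums were also below the controls in DNBS (1519 to 2216 CPM) and anti-CD40 (2541 to 2942 CPM). Markers of leukocytes were higher in both DSS and IL-10 blockade: 7 and 6 of 7 for neutrophils (508 to 2548 and 243 to 928 against 131 to 145 CPM), 6 and 3 of 6 for macrophages and monocytes (844 to 1826 and 716 to 1135 against 321 to 378 CPM), and 4 and 5 of 5 for T cells (31.4 to 50.6 and 67 to 115 against 9.58 to 16.5 CPM). Ly6g made most of the neutrophil sum in wild-type controls, at a mean of 136 CPM. Mean S100a8 was 0.201 CPM there, 231 in DSS and 118 after IL-10 blockade. The part of all these cell types in the members' changes was not tested.

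Members are short transcripts of high level, and other genes of that kind also moved. Members had a median transcript length of 681.5 bases, and 71 of 94 were no longer than 1000 bases. Among 509 other nuclear protein-coding genes of that length and at 100 CPM or more, 65.4% were higher and 7.27% lower after IL-10 blockade (median log2 fold change 0.47), against 82.4% and 3.30% of the nuclear members (median 0.66). In DSS 14.9% of those genes were higher and 21.2% lower (median -0.05), against 1.10% and 49.5% of the members (median -0.37). In TRUC 42.2% were higher and 12% lower, against 16.5% and 8.79% of the members. What length or level contributes was not tested.

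**Figure D3:**
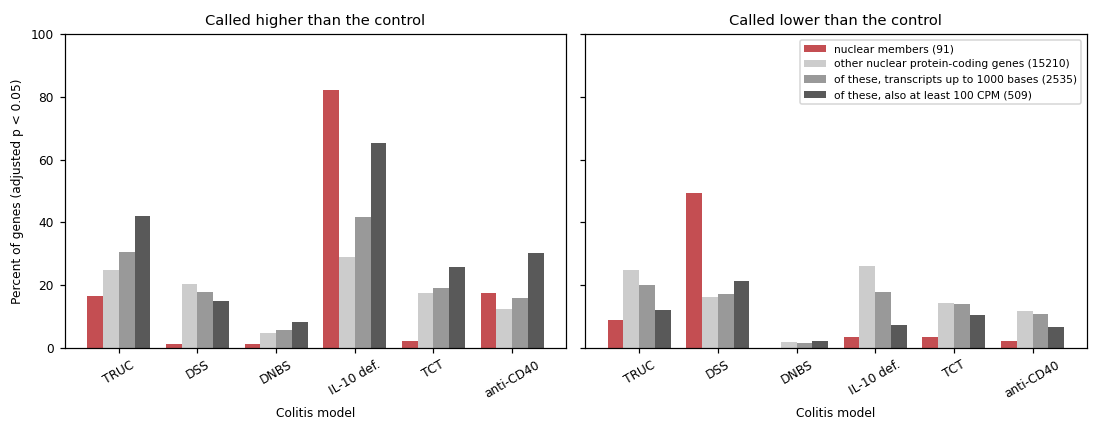
Percent of genes called higher (left) or lower (right) in each model, for the 91 nuclear members, 15210 other nuclear protein-coding genes, 2535 of these with transcripts up to 1000 bases and 509 of those at 100 CPM or more. After IL-10 blockade the bars for higher reach 82.4% of members and 65.4% of the 509, and in DSS the bars for lower reach 49.5% and 21.2%.

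Complex I takes electrons from NADH and was represented by 38 tested members. After IL-10 blockade 33 were higher (86.8%, beside 27.2% of all genes) and 1 lower. In DSS 18 were lower (47.4%, beside 16.3%) and none higher. TRUC had 7 higher and 3 lower (18.4% and 7.89%, beside 22.4% and 23.4%). TCT had 1 higher and 2 lower (2.63% and 5.26%, beside 16.1% and 14%). Both models were thus under the shares of all genes. Anti-CD40 had 8 higher (21.1%, beside 10.9%), and DNBS 1 higher (2.63%, beside 3.95%). Ndufs4, on chromosome 13 (114287795 to 114388258, GRCm38, minus strand), encodes an accessory subunit needed for a stable complex. Its levels were 64.7, 70.1 and 73.2 CPM in wild-type controls, 71.4, 71.0 and 70.6 CPM in DSS and 150, 173, 133 and 246 CPM after IL-10 blockade. DSS mice sat within the control range and all IL-10 blockade mice above it (log2 fold change 1.34, SE 0.16, edgeR adjusted p = 1.27e-06). Ndufs4 was also higher in TRUC (125, 127, 146 and 129 against 88.7, 92 and 94.8 CPM, log2 0.52) and in anti-CD40 (130, 126 and 96.7 against 92.2, 74.3 and 78.2 CPM, log2 0.53). The Ndufs4 calls were not followed through the refits without single mice or with other controls.

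Among core subunits of complex I, which hold the flavin and iron-sulphur centres, Ndufs1 fell by 0.45 on the log2 scale in DSS and rose by 0.36 after IL-10 blockade, and both calls were lost without some of the single mice. Ndufv1, which binds NADH, fell by 0.49 in DSS and was not called elsewhere. Ndufa11, an accessory subunit of the membrane arm whose upstream stretch is printed above, had 27.2, 20.4 and 23.0 CPM in wild-type controls, 21.2, 22.9 and 17.3 in DSS and 36.3, 49.5, 39.9 and 61.5 after IL-10 blockade. Every IL-10 blockade mouse was above all control and DSS mice, with a log2 difference of 0.99 from controls and of 1.19 (SE 0.16, edgeR adjusted p = 2.27e-06) from DSS.

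Ndufa4 was higher in TRUC (190, 209, 239 and 209 CPM against 131, 130 and 128) and after IL-10 blockade (205, 209, 161 and 287 CPM against 105, 93.6 and 93.4), at log2 fold changes of 0.71 and 1.15. Its DSS levels, 96.1, 94.4 and 108 CPM, did not separate from the controls. Ndufa12, an accessory subunit, was 1 of the 2 nuclear members higher in TCT, at 112, 128 and 148 CPM against 92.9, 76.6 and 82.0 (log2 0.62, edgeR adjusted p = 0.00207). It was not called in TCT when the wild-type mice served as controls, and 17.7% of its 50-base windows also occur in other annotated genes.

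Ndufa1, Ndufa7 and Ndufb2 were the 3 complex I members called lower in TRUC, where 7 were higher. Ndufb2 was also the 1 called lower after IL-10 blockade. In DSS, with 18 complex I members lower and none higher, a fall went with the complex. Ndufa1, a small membrane subunit encoded on the X chromosome, was lower in TRUC at 91.2, 88.5, 96.8 and 88.0 CPM against 128, 131 and 131 (log2 -0.51, edgeR adjusted p = 0.00389), and lower in DSS (-0.53) and TCT (-0.41). Ndufa7 fell by 0.41 in TRUC, where its 84.7 to 96.6 CPM lay below the 115 to 123 CPM of the controls, and rose by 0.34 after IL-10 blockade. Ndufb2 was lower in 4 models, by log2 -0.76 in TRUC, -0.99 in DSS, -1.28 after IL-10 blockade and -0.95 in TCT. Its counts were low, with 7.46, 4.59 and 4.51 CPM in wild-type controls and 1.66 to 2.74 CPM after IL-10 blockade (mean 45.7 counts over all libraries). Its annotated exons overlap those of other genes. Some of these reads may thus not be its own, and some of its reads may not have been counted.

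The only nuclear member called in DNBS was Ndufa4l2, a paralogue of Ndufa4 induced by hypoxia. Its levels were 2.92, 15.1 and 1.19 CPM against 1.90, 1.86 and 1.97 CPM in controls (log2 1.74, SE 0.52, edgeR adjusted p = 0.0478). One mouse, DNBS 14, was high and the groups overlapped. The call was lost without that mouse and without any 1 of the controls.

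The complex I assembly factors followed the subunits only in part: 5 of 8 were higher after IL-10 blockade and 4 of 8 in TRUC, while DSS had 1 higher and 1 lower. The shares higher were 62.5% and 50%, beside 27.2% and 22.4% of all genes. Both DSS shares were 12.5%, under the 17.7% higher and 16.3% lower of all genes. Ndufaf4, the member higher in DSS, rose from 24.5, 25.2 and 25.0 CPM to 54.5, 40.1 and 35.3 CPM (log2 0.80, SE 0.22, edgeR adjusted p = 0.00657). All DSS mice were above the controls, but the call was lost without DSS mouse 5. Ndufaf4 was also higher after IL-10 blockade (35.4 to 45.7 CPM, log2 0.74) and in TRUC (55.8 to 64.4 against 33.9 to 43.8 CPM, log2 0.64). It was thus called higher in both models between which most subunits differed.

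Complex II, succinate dehydrogenase, links the citric acid cycle to the chain and has no mitochondrially encoded subunit. All 4 of its subunits were lower in DSS, with log2 fold changes of -0.43 to -0.54, and 3 of 4 were higher after IL-10 blockade. Over all genes 16.3% were lower in DSS and 27.2% higher after IL-10 blockade. Sdha, the catalytic flavoprotein, had 567, 583 and 605 CPM in wild-type controls, 464, 434 and 313 in DSS and 580, 593, 624 and 649 after IL-10 blockade. The DSS mice lay below the controls (log2 -0.54, SE 0.11, edgeR adjusted p = 0.000745), and the IL-10 blockade mice overlapped them (log2 0.06, not called). Sdhd, a membrane anchor, fell from 257, 255 and 264 CPM to 219, 194 and 128 CPM in DSS (log2 -0.52) and rose to 472, 447, 408 and 487 CPM after IL-10 blockade (log2 0.81, SE 0.14, edgeR adjusted p = 6.78e-05). Sdhb, the iron-sulphur subunit, changed by -0.45 and 0.56. Sdhc and Sdhd stood at 0.36 and 0.45 in anti-CD40, calls lost against the Rag2-/- controls and without any 1 of 4 mice (Rag1-/- controls 3 and 4, anti-CD40 mice 6 and 7).

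Complex III, the cytochrome bc1 complex, had all 8 tested members higher after IL-10 blockade and 5 of 8 lower in DSS. These shares, 100% and 62.5%, stood beside 27.2% and 16.3% of all genes. Uqcrh, the hinge subunit, had 220, 210 and 230 CPM in wild-type controls, 153, 162 and 127 CPM in DSS and 285, 340, 279 and 448 CPM after IL-10 blockade. The 3 groups did not overlap, and the log2 fold changes were -0.58 (SE 0.14) and 0.62 (SE 0.13). Uqcrq, a small subunit, rose after IL-10 blockade from 211, 210 and 226 to 411, 510, 408 and 651 CPM (log2 1.20, SE 0.16, edgeR adjusted p = 3.41e-06). It was also higher in TRUC (0.63) and anti-CD40 (0.53, lost without any 1 of the 4 mice named for Sdhc), and stood at -0.05 in DSS, not called. Uqcrfs1, the Rieske iron-sulphur protein, changed by -0.51 in DSS and 0.88 after IL-10 blockade, and the core protein Uqcrc1 by -0.50 (lost without wild-type control 4 or DSS mouse 8) and 0.65.

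Complex IV, cytochrome c oxidase, had 10 of 16 higher and 1 lower after IL-10 blockade (62.5% and 6.25%, beside 27.2% and 26.1% of all genes). In DSS 9 were lower (56.25%, beside 16.3%). In TRUC 4 were lower and none higher, and the share lower (25%) was close to the 23.4% of all genes. Cox4i1, the ubiquitous form of its regulatory subunit, had 393, 377 and 416 CPM in wild-type controls, 285, 288 and 223 CPM in DSS and 481, 568, 505 and 735 CPM after IL-10 blockade. Groups did not overlap (log2 -0.58 and 0.53, edgeR adjusted p = 0.00129 and 0.000776). Cox6a1, the form of subunit VIa found outside muscle, stood at 513, 486 and 547 CPM in controls, 405, 423 and 339 in DSS and 719, 987, 782 and 1069 after IL-10 blockade, again without overlap (log2 -0.41 and 0.79). Cox5a changed by -0.51 and 0.73, Cox5b by -0.36 and 0.80, and Cox8a by -0.44 and 0.66. In DSS the Cox5b call was lost in 9 of 13 alternatives, among them without any 1 wild-type control or DSS mouse 8, and the Cox6a1 and Cox8a calls in 4 of 13, DSS mouse 8 again among them. Cox7b and Cox7a2 were higher after IL-10 blockade, by 1.10 and 1.05, and were not called in DSS.

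The tissue-restricted forms of complex IV subunits were low in colon and behaved differently. Cox7a1, the form known from heart and skeletal muscle (chromosome 7, 30184144 to 30186078, plus strand), fell in DSS from 40.4, 33.5 and 42.3 CPM to 12.3, 18.7 and 5.67 CPM. All DSS mice were below all controls (log2 -1.66, SE 0.26, edgeR adjusted p = 4.78e-05), and no nuclear member fell further in DSS. It was also lower in TRUC, at 21.6, 20.2, 22.5 and 22.1 CPM against 34.8, 32.6 and 36.1 (log2 -0.67, edgeR adjusted p = 0.0206), a call lost without Rag2-/- control 1 or 4. None of the 8 smooth muscle markers was lower in DSS, and of 7 tested skeletal muscle markers none was called there (31.0 to 50.5 CPM in sum against 25.4 to 34.5). Within DSS, the mice with 12.3, 18.7 and 5.67 CPM of Cox7a1 had smooth muscle sums of 9046, 12229 and 4996 CPM. The wild-type controls had 6886 to 8470 CPM. The part of muscle in the Cox7a1 values was not tested.

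Cox8b, a form of subunit VIII found in muscle and brown fat, lay between 0.0843 and 3.40 CPM everywhere and was called lower in TRUC, TCT and IL-10 blockade. It had 1.84 to 3.40 CPM in the Rag2-/- controls against 0.0889 to 0.733 in TRUC, and 1.80 to 3.20 CPM in wild-type controls against 0.0843 to 0.940 after IL-10 blockade, without overlap. Some of these libraries hold no more than 3 counts (0.179 to 0.313 CPM), so no fold is given. Adipocyte markers moved in TRUC and TCT, where 5 of 5 and 4 of 5 tested markers were lower, but after IL-10 blockade none was lower and 1 was higher. Their sums were 11.1 to 33.2 CPM in TRUC and 25.9 to 138 in its controls, 3.75 to 27.1 in TCT and 86.1 to 153 in its controls, and 14 to 69 after IL-10 blockade against 11.6 to 41.5. The defining brown fat marker Ucp1 was at 0 in 23 libraries. Their part in the Cox8b values was not tested. Cox4i2, the hypoxia-linked form of subunit IV, was lower in TRUC (0.733 to 1.07 against 1.42 to 2.57 CPM). Cox6a2 and Cox6b2 were called lower in anti-CD40 from similarly few reads, and each call was lost without 1 or another of the mice.

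Cox7a2l, a gene linked to supercomplexes of complexes III and IV, moved apart from the other abundant complex IV members in TRUC and after IL-10 blockade. In DSS it was among the 9 complex IV members called lower. It fell in DSS from 200, 219 and 210 CPM to 128, 115 and 107 CPM (log2 -0.84, SE 0.12, edgeR adjusted p = 2.89e-05). In TRUC it stood at 144, 168, 181 and 166 CPM against 230, 246 and 225 (log2 -0.51, edgeR adjusted p = 0.00103). All mice of both models were below their controls. After IL-10 blockade it had 186, 184, 187 and 241 CPM, which overlapped the controls (log2 -0.07, not called). Of its 50-base windows 13.8% also occur in other annotated genes.

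Complex V, the ATP synthase, had 16 of 17 members higher and 1 lower after IL-10 blockade, and 8 lower in DSS. These shares were 94.1%, 5.88% and 47.1%, beside 27.2%, 26.1% and 16.3% of all genes. Atp5a1 and Atp5b encode the alpha and beta subunits of the catalytic head and were the most abundant nuclear members by CPM. Atp5a1 had 1312, 1294 and 1415 CPM in wild-type controls, 1119, 1028 and 718 in DSS and 1909, 1916, 1932 and 2154 after IL-10 blockade, without overlap (log2 -0.49 and 0.56). In anti-CD40 it stood at 0.41. Atp5b changed by -0.45 and 0.44, and stood at 0.38 in anti-CD40. The anti-CD40 calls of both were lost against the Rag2-/- controls and without any 1 of 4 mice (Rag1-/- controls 3 and 4, anti-CD40 mice 6 and 7). Atp5h, a subunit of the stalk with its upstream stretch above, changed by -0.39 in DSS and 0.55 after IL-10 blockade.

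The 3 genes for the c subunit of the membrane rotor encode the same mature protein, and they moved unequally. Atp5g1 (chromosome 11, 96068852 to 96075670, minus strand) had 133, 136 and 142 CPM in Rag2-/- controls and 265, 300, 343 and 308 CPM in TRUC. Every TRUC mouse was well above the controls (log2 1.15, SE 0.17, edgeR adjusted p = 1.53e-05), the largest rise of a nuclear member in that model. It rose also after IL-10 blockade (317, 310, 314 and 381 against 173, 173 and 179 CPM, log2 0.92), in TCT (188, 251 and 250 against 145, 123 and 128 CPM, log2 0.80) and in anti-CD40 (197, 207 and 153 CPM, log2 0.49). The TCT call was lost against the wild-type controls, and the anti-CD40 call (edgeR adjusted p = 0.0478) was lost without any 1 of 5 mice and against the Rag2-/- controls. DSS, at 169, 155 and 102 CPM, lay below its controls but was not called. Atp5g3 rose in TRUC (0.44) and IL-10 blockade (0.77), and Atp5g2 rose by 0.55 after IL-10 blockade. The Atp5g3 call in TRUC was lost without any 1 Rag2-/- control or TRUC mouse 4. Atp5g2 stood at -0.35 in DSS, a call lost in 10 of 13 alternatives, among them without any 1 wild-type control. Of the windows of Atp5g1 and Atp5g2, 11.1% and 38.4% occur in other annotated genes as well.

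**Figure D4:**
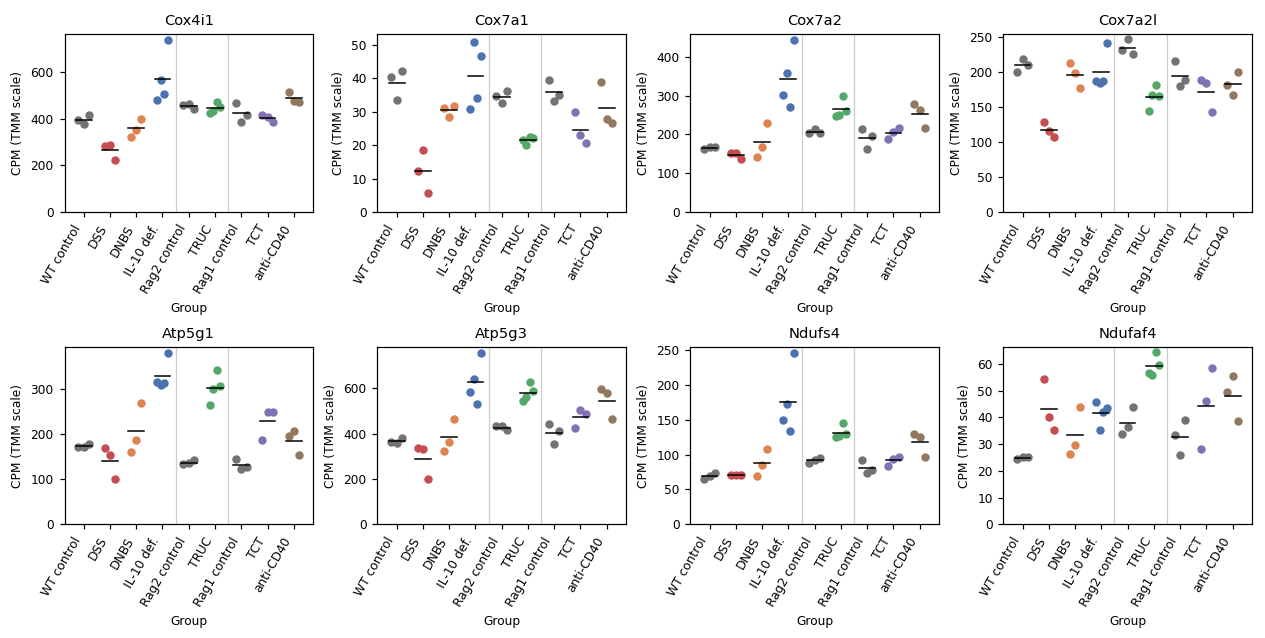
CPM of 8 nuclear members in each mouse (points) of the 9 groups, with a line at the group mean and an axis that starts at 0 in each panel. Cox7a1 reads 5.67 to 18.7 CPM in DSS against 33.5 to 42.3 in wild-type controls, and Atp5g1 265 to 343 CPM in TRUC against 133 to 142 in its controls.

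Atp5s, a coupling factor homologue whose name places it here, went down: by log2 -0.66 in TRUC, -0.99 in DSS and -0.41 after IL-10 blockade. Its levels were 17.6, 20.9 and 17.9 CPM in wild-type controls and 11.4, 9.70 and 7.27 CPM in DSS. The call after IL-10 blockade (14.7, 10.8, 14.7 and 16.4 CPM, edgeR adjusted p = 0.0477) was lost without any of 6 of the 7 mice.

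Mitochondrially encoded members are transcribed together from both strands of mitochondrial DNA, and their reads are hard to assign because the nuclear genome carries copies. Of the windows of mt-Co2, mt-Co3, mt-Atp6, mt-Nd4l and mt-Nd3, 98% to 100% also occur in pseudogenes on chromosome 1. The 7 copies there, which include 1 of mt-Co1 and 1 of mt-Nd4, together held 1.16 to 2.13 times as many counts as these 5 genes. Gm28438, the copy of mt-Nd3, had means of 22.0 CPM in Rag1-/- controls, 13.8 in anti-CD40, 26.3 in Rag2-/- controls and 18.3 in TRUC. Its mean was 1.48 CPM in TCT and 1.60 to 3.31 CPM in the BALB/c groups without a labelled gene deletion. TCT thus stood apart from its labelled controls here too, and why was not tested. Copies cover 62.2% of mt-Nd4 and 51.1% of mt-Co1. For mt-Nd1, mt-Nd2, mt-Nd5, mt-Nd6 and mt-Cytb, under 10% of windows are shared, and statements on direction rest on these 5. All the mitochondrially encoded members together took 1.29% to 2.07% of the counts in a library. Per kilobase of exon, mt-Co1 stood at 4409 CPM in wild-type controls and mt-Cytb at 2624, above the highest nuclear member, Cox6a1, at 735.

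Of the 12 tested mitochondrially encoded members, 5 were lower in TRUC, 4 in DSS, 5 in TCT and 2 in anti-CD40, none in DNBS, and 4 were higher after IL-10 blockade, with no edgeR call in the other direction in any model and none there at an unadjusted p under 0.05. As shares of the 12, 41.7% were lower in TRUC and TCT (23.4% and 14% of all genes), 33.3% in DSS (16.3%) and 16.7% in anti-CD40 (10.7%), and 33.3% were higher after IL-10 blockade (27.2%), so the last 2 were near the background. Median log2 fold changes of the 12 were -0.45 in TRUC, -0.33 in DSS and TCT, -0.42 in anti-CD40, -0.20 in DNBS and 0.35 after IL-10 blockade. Among the 5 with few shared windows, 3 were lower in TRUC, 3 in DSS, 1 in TCT and 2 in anti-CD40, and 3 were higher after IL-10 blockade. Single mice moved several of these counts: DSS to 0 without wild-type control 1 or DSS mouse 8, TCT to 0 without Rag1-/- control 2, and IL-10 blockade to 1 without wild-type control 2 or mouse 4. The TRUC count stayed at 4 or 5.

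Among the 5 genes with few shared windows the largest falls were those of mt-Nd6, the only mitochondrial protein gene transcribed from the other strand, and of mt-Nd5. In anti-CD40 mt-Nd6 had 168, 146 and 139 CPM against 260, 217 and 241 CPM (log2 -0.67, SE 0.13, edgeR adjusted p = 0.00107), and mt-Nd5 had 1320, 1203 and 1178 against 2058, 1697 and 1831 CPM (log2 -0.59, edgeR adjusted p = 0.0014). Groups did not overlap, and both calls held without any single mouse and against the Rag2-/- controls. Both were also lower in TRUC (-0.52 and -0.43) and DSS (-0.42 and -0.35). In the same anti-CD40 mice 8 of the 38 tested nuclear members of complex I were higher in the main fit, Ndufs4 among them. That was 21.1%, beside 10.9% of all genes. Leaving out single mice moved the number of nuclear members higher there between 1 and 30. Ndufs4 was named after its values were seen, and its call was not followed through those refits or against the Rag2-/- controls.

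In TCT mt-Nd2 was lower (log2 -0.40), and with it mt-Nd4 (-0.39), mt-Co2 (-0.73), mt-Co3 (-0.85) and mt-Atp6 (-0.93). All but mt-Nd2 share most of their windows with copies. After IL-10 blockade mt-Nd1 (0.39), mt-Cytb (0.37), mt-Co1 (0.33) and mt-Nd2 (0.28) were higher, each by less than the median of the nuclear members. These rises depended on the scaling. As a share of all counts, the mitochondrially encoded members took 1.55%, 1.89%, 1.56% and 2.07% after IL-10 blockade. In wild-type controls they took 1.90%, 1.75% and 1.87%. Under upper quartile scaling their median log2 fold change was 0.18, and none was called higher. For mt-Co1 the 4 IL-10 blockade mice, at 6571, 9437, 7422 and 10700 CPM, overlapped the controls at 6735, 6332 and 7366. Its DSS levels of 5038, 5617 and 4995 CPM were below the controls (log2 -0.38), as were those of TRUC (5717, 6048, 6797 and 6198 against 7823, 7788 and 7608 CPM, log2 -0.32). Directly against DSS, all 12 were higher after IL-10 blockade, with a median log2 difference of 0.71, of which 5 had no overlap between mice. The 12 calls fell to 5 without IL-10 blockade mouse 4 or DSS mouse 8, to 4 with DESeq2 and to 2 with edgeR on the 2 groups alone.

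**Figure D5:**
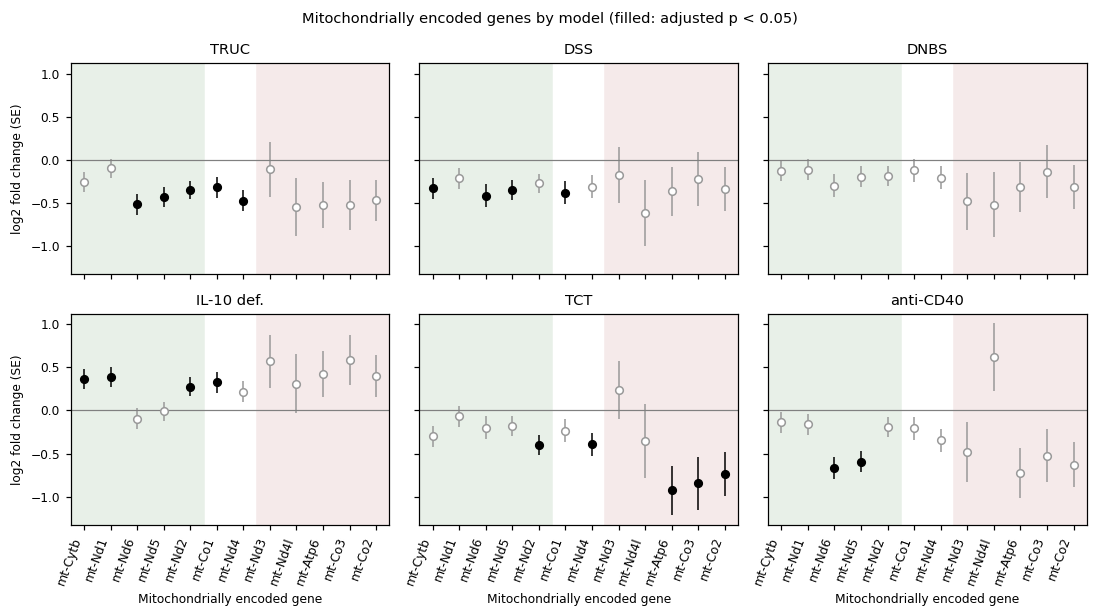
Log2 fold change with its SE for the 12 tested mitochondrially encoded genes in each model, filled where the adjusted p is under 0.05, with green shading for genes with few shared windows and red for those almost wholly shared. The filled points lie below 0 in TRUC, DSS, TCT and anti-CD40 and above 0 after IL-10 blockade, where mt-Nd1 stands at 0.39, and the lowest green-shaded point is mt-Nd6 in anti-CD40 at -0.67.

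The balance of the 2 genomes was described by dividing the sum of the 6 mitochondrially encoded genes with few shared windows (the 5 above and the untested mt-Atp8, which is near 0) by the sum of the nuclear subunits. This ratio was 0.546 to 0.581 in wild-type controls, 0.544 to 0.587 in Rag2-/- controls and 0.528 to 0.550 in Rag1-/- controls. It was 0.398 to 0.428 in TRUC, 0.396 to 0.478 after IL-10 blockade, 0.432 to 0.467 in TCT and 0.346 to 0.385 in anti-CD40, so that all mice of these 4 models lay below all mice of their controls. DSS (0.545 to 0.707) and DNBS (0.466 to 0.550) overlapped theirs. In DSS both sums were lower, at 0.754 and 0.809 times the controls, and after IL-10 blockade they stood at 1.56 and 1.20 times, the mitochondrial sum overlapping the controls. On the TMM scale TRUC and anti-CD40 had more of the nuclear sum and less of the mitochondrial one, at 1.13 against 0.823 and 1.24 against 0.838. The ratio in a mouse does not depend on that scale, while the size of each sum does.

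Among electron carriers outside the rule, Cycs, cytochrome c itself, was higher after IL-10 blockade (log2 1.75, SE 0.21, edgeR adjusted p = 9.36e-07), TRUC (1.05), anti-CD40 (1.09) and TCT (0.79), and stood at 0.52 in both DSS and DNBS, not called. Cyc1, the cytochrome c1 of complex III, which the name rule misses, went with its complex: -0.49 in DSS and 0.87 after IL-10 blockade. In the list of 12 carriers and cytochromes, 6 were higher (50%) and none lower after IL-10 blockade, beside 27.2% and 26.1% of all genes. In DSS 1 was higher and 7 lower (8.33% and 58.3%, beside 17.7% and 16.3%). AA467197, a paralogue of Ndufa4, and the complex IV partners Higd1a and Higd2a were all 3 higher after IL-10 blockade, AA467197 by log2 0.83. Of 35 assembly genes for complexes beyond the members, 15 were higher and 1 lower after IL-10 blockade, 7 and 4 in TRUC, and 1 and 5 in DSS. In TRUC and DSS these shares were below those of all genes in both directions. After IL-10 blockade they were 42.9% and 2.86%, beside 27.2% and 26.1% of all genes.

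Of 15 regulators of mitochondrial biogenesis and mitochondrial DNA expression, 2 were higher and 6 lower after IL-10 blockade (13.3% and 40%, against 27.2% and 26.1% of all genes). In DSS 1 was higher and 5 lower (6.67% and 33.3%, against 17.7% and 16.3%). The summed level of this list after IL-10 blockade was 1.13 times that of the controls, with all mice above them. Esrra, the oestrogen-related receptor that drives respiratory genes, was higher after IL-10 blockade (log2 1.03, edgeR adjusted p = 3.40e-06) and in anti-CD40 (0.68). Ppargc1a, the coactivator PGC-1alpha, was lower in TRUC (-2), DSS (-2.04) and IL-10 blockade (-1.83). Tfam, the mitochondrial transcription and packaging factor, was called in none of the 6 models.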

How the data were processed

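RNA of whole colon from 29 mice was sequenced, and the authors deposited 1 table of raw counts per gene. Per the labels, the submitters' processing notes name Trimmomatic, HISAT2, HTSeq and the build GRCm38, without versions. Strandedness of counting is not given in the sources used here, so antisense overlaps cannot be resolved. Spike-in rows were left out. Counts were analysed in R 4.3.3 with edgeR 4.0.16 (TMM scaling, quasi-likelihood F test, Benjamini-Hochberg adjustment, threshold 0.05), in 1 fit of all 9 groups over the 18616 genes with a mean of at least 3 counts. SE was taken as the absolute log2 fold change over the root of F. Per-mouse CPM use TMM-scaled totals, and 3 counts equal 0.179 to 0.313 CPM. Totals of 10725564 to 14977094 counts limit precision for the lowest genes. Groups came from the labels, which do not state more of the mice's origin, so p-values measure the spread between these mice. The column names of TRUC mice 4 and 5 are formed unlike those of the other TRUC mice, and what they encode is not stated. The 33 pairs of mice within groups all differed beyond sampling noise. Sums, ratios and shares carry no test.

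Members and lists were chosen with earlier results of these data known. The rule for genes named took all mitochondrially encoded members, paralogous isoforms, catalytic or core subunits, in each complex the 2 nuclear members with the largest mean change over the 6 models, up to 5 members a model called against most of their complex, and 6 related genes. Ndufs4, Ndufa11, Uqcrh and Atp5h were named after their values were seen. Genes in the lists for pathways and cell types were described by counts. Sharing of sequence was the percent of a gene's exonic 50-base windows that another annotated gene also holds. Replicate numbers do not pair the mice: deviations of same-numbered mice correlated at 0.0556, 0.0139 and -0.0201 (IL-10 blockade and wild-type) and -0.0518 and -0.00546 (TRUC and Rag2-/-). Alternatives were RLE and upper quartile scaling, no filter and edgeR's filterByExpr, library totals without mitochondrial genes, the 2 groups alone in edgeR and in DESeq2 1.42.0, a replicate block, other controls and each mouse left out. The direct comparison of IL-10 blockade with DSS, and the set of members with under 5% of windows or exons shared, were added after seeing the data. The fit was tested on simulated data. Values of 1 member and of 1 citric acid cycle gene are not reported here, although both are in the counts.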

Additional observations from a re-analysis of the deposited data

Results flagged for a closer look

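Within the groups of 4 mice, the highest or lowest mouse stood apart from the other 3 by Dixon's test in 7 of 120 sets of values, and chance alone flags about 1 in 20. IL-10 blockade mouse 4 was the highest in 5 of them: 381 CPM of Atp5g1 (others 310 to 317), 2154 CPM of Atp5a1 (others 1909 to 1932), 241 CPM of Cox7a2l (others 184 to 187), 1725 CPM for the sum of complex II (others 1527 to 1543) and 83.4 CPM of mt-Co3 (others 26.8 to 35.1). IL-10 blockade mouse 3 was the highest for Cox6a2, at 0.772 CPM (others 0.312 to 0.337). TRUC mouse 4 was the lowest for mt-Nd3, at 1.83 CPM (others 2.58 to 2.69).

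The models differed in their effect on the members. The change against controls differed among the 6 models for 81 nuclear and 12 mitochondrially encoded members by edgeR's quasi-likelihood F test. Set directly against DSS, IL-10 blockade had 82 nuclear members higher and 0 lower.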

How the results depend on the processing

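Leaving out 1 mouse at a time moved the number of nuclear members called higher between 70 and 75 after IL-10 blockade, 7 and 16 in TRUC, 1 and 30 in anti-CD40, 0 and 2 in DNBS and 0 and 1 in DSS. The number lower moved between 13 and 50 in DSS, 0 and 3 in TCT, 0 and 2 in anti-CD40 and 0 and 1 in DNBS, and between 0 and 2 for IL-10 blockade against DSS. TRUC had 7 higher without Rag2-/- control 1, and 9 without control 2 or 4 or TRUC mouse 4. Anti-CD40 had 1 higher without Rag1-/- control 3 or mouse 7, 2 without control 4, 3 without mouse 6 and 30 without mouse 8. DSS had 13 lower without mouse 8. TCT had 1 lower without any 1 Rag1-/- control or mouse 3, and 0 without mouse 5. Mitochondrially encoded members called lower moved between 0 and 6 in DSS (0 without wild-type control 1 or DSS mouse 8, 1 without control 4 or mouse 5) and 0 and 5 in TCT (0 without Rag1-/- control 2, 3 without mouse 1, 1 without mouse 3 or 5). Those called higher after IL-10 blockade moved between 1 and 7 (1 without wild-type control 2 or mouse 4, 2 without mouse 2, 7 without mouse 3), and against DSS between 5 and 12 (5 without IL-10 blockade mouse 4 or DSS mouse 8, 6 without DSS mouse 5).

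DESeq2 on the 2 groups gave 38 nuclear members higher in TRUC, 26 in anti-CD40 and 0 in DNBS, with 1 lower in DNBS and 0 in anti-CD40. Its mitochondrially encoded counts were 9 lower in TRUC, 4 lower in anti-CD40, 0 higher after IL-10 blockade and 4 higher against DSS. EdgeR on the 2 groups alone gave 38 nuclear members higher in TRUC, 0 higher in DNBS, 13 lower in DSS and 1 lower in anti-CD40. Its mitochondrially encoded counts were 9 lower in TRUC, 1 in DSS and 4 in anti-CD40, with 1 higher after IL-10 blockade and 2 higher against DSS. Upper quartile scaling gave 9 nuclear members higher in TRUC and in anti-CD40, 0 higher and 1 lower in DNBS and 5 lower after IL-10 blockade, with 0 mitochondrially encoded members higher there and 7 higher against DSS. It moved the median log2 fold change of all genes to -0.14 in TRUC and -0.18 after IL-10 blockade, where the nuclear members' medians were then 0.04 and 0.49. Without the filter on low counts 29 nuclear members were lower in DSS and 1 in anti-CD40, and 0 mitochondrially encoded members were lower in DSS. With the Rag2-/- controls, anti-CD40 had 2 nuclear members higher and 5 lower, and 5 mitochondrially encoded members lower. Among the 55 nuclear members with few shared windows or exons, 43 were higher after IL-10 blockade, 48 were higher there than in DSS, 26 were lower in DSS, 10 were higher and 1 lower in anti-CD40 and 0 were higher in TCT.

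With the replicate block, 69 nuclear members were higher and 1 lower after IL-10 blockade, with 1 mitochondrially encoded member higher. In TRUC the replicate block gave 12 higher, 6 lower and 5 mitochondrially encoded members lower. The numbers are not shown to pair the mice. For the 147 calls of named members in a model, 792 of 977 refits without 1 mouse and 948 of 1103 under other settings kept the call, the rest lost it, and none changed sign. Where causes are not given, the cause was not tested. With 3 or 4 mice a group and few reads for the lowest members, small differences were not detectable at this depth.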

Other observations

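Other mitochondrial genes moved with the nuclear members in part. Of 77 tested genes of the mitochondrial ribosome, which translates the mitochondrially encoded subunits, 56 were higher and 0 lower after IL-10 blockade by edgeR's quasi-likelihood test, and 46 were higher and 1 lower in TRUC, at median log2 fold changes of 0.54 and 0.42. Over all genes 27.2% and 22.4% were higher in these models, and of the 509 other short and abundant genes 65.4% and 42.2%. In DSS 2 were higher and 5 lower (median 0.02) and in TCT 7 and 4, all under the shares of all genes. In anti-CD40 13 were higher (16.9%, beside 10.9% of all genes) and 0 lower, and in DNBS 0 and 0. In the main fit TRUC thus had a larger share of ribosome genes called higher than of oxidative phosphorylation members (15 of 91), a difference that was not tested. The number of members depended on the fit, as given above, and the ribosome genes were not counted in the other fits. Of 8 import and chaperone genes 6 were higher in TRUC and 5 after IL-10 blockade (75% and 62.5%, beside 22.4% and 27.2% of all genes).

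Of 12 citric acid cycle genes 9 were lower and 0 higher in DSS (median log2 fold change -0.49), among them citrate synthase, Cs, at -0.49. Over all genes 16.3% were lower in DSS and 17.7% higher. After IL-10 blockade 4 of the 12 were higher and 0 lower (median 0.17), with Cs at 0.11, not called. The share higher, 33.3%, was near the 27.2% of all genes. Cs was chosen after its values were seen.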
